A study of Homo sapiens with 6 samples.

Results

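The proteasome subunit genes of the glioma cell line U87-MG were examined in 6 RNA sequencing libraries. All rows were taken whose gene symbol is PSMA, PSMB, PSMC, PSMD, PSME or PSMG with a number, PSMF1, POMP or ADRM1, which gave 50 of the 61806 genes in the deposited table and left out pseudogenes. U87-MG is an established line derived from a human glioblastoma, so every library came from the same line. The 3 libraries of the negative control (NC) carry the genotype label wildtype, and the other 3 are labelled GRIK1 siRNA. GRIK1 encodes a subunit of kainate-type glutamate receptors. The purpose stated for the series was to find expression changes downstream of GRIK1 in glioblastoma cells. The series text speaks of shRNA and the labels of siRNA, and the labels do not say whether the numbers 1 to 3 are replicate cultures or siRNA sequences. The paper states that its siRNA 1 was the most efficient and served in its later experiments. Its account of the sequencing names no siRNA, so the meaning of the numbers stays uncertain. The p-values therefore measure the spread between these libraries, which may be technical. No time after transfection was taken from the labels.

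The 26S proteasome degrades proteins that carry ubiquitin chains. Its barrel-shaped 20S core has outer rings of alpha subunits (PSMA genes), which gate the entrance, and inner rings of beta subunits (PSMB genes), of which PSMB5, PSMB6 and PSMB7 hold the active sites. The 19S cap binds, unfolds and feeds the substrate and is made of a base, with the ATPases PSMC1 to PSMC6, and a lid. Interferon-inducible subunits PSMB8, PSMB9 and PSMB10 can replace the active ones to form the immunoproteasome, and PSME1 and PSME2 build the PA28 cap, which opens the core without ATP. The chaperones POMP and PSMG1 to PSMG4 help to assemble the core. Many of these genes are transcribed in a coordinated way, and the factor NFE2L1 is known to raise them when the proteasome is inhibited.

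The total counts ranged from 11099909 to 14006968 per library. GRIK1 had 18, 9 and 8 counts in NC 1 to NC 3 and 15, 20 and 20 in the GRIK1 siRNA libraries, so it was not lower in the latter (log2 fold change 0.44, SE 0.43, adjusted p = 0.62 in edgeR without a filter on low values). Counts this low cannot decide whether GRIK1 was knocked down. The paper reports an efficient knockdown of GRIK1 in U87-MG cells. The group is therefore called by its label throughout. NC library 3 stood apart. Ribosomal protein genes took 9.38% of its counts against 4.80% to 5.51% in the other 5 libraries, and genes of the mitochondrial genome 4.16% against 4.90% to 5.68%. Markers of a mesenchymal glioma line (VIM, CD44, TNC, S100A6 and NES, the last under 0.5 FPKM) summed to between 2141 and 2385 FPKM, most of it VIM and S100A6. NC 3 stood apart here too, with 24.8 FPKM of TNC against 144 to 163 in the other 5 libraries and 825 FPKM of VIM against 1005 to 1076. The astrocyte markers GFAP, AQP4 and S100B and the endothelial markers PECAM1, VWF and CDH5 all had means under 0.5 FPKM. Of the immune markers, PTPRC and CD3E were under 0.5 FPKM, while CD68 (2.11 to 4.06 FPKM) and CD74 (2.46 to 6.05 FPKM) were not, and both were lowest in NC 3. The summed levels were 4.25 to 5.99 FPKM for the epithelial markers (KRT19 under 0.5) and 1.88 to 2.81 for the neuron markers (RBFOX3 under 0.5). Of the oligodendrocyte lineage, MBP was under 0.5 FPKM and OLIG2 had 0.41 to 0.83 FPKM. The part of these in the results was not tested. In bulk RNA, fewer cells that use a gene and less RNA of it per cell cannot be told apart.

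The levels of the genes were described first. They are given in FPKM, which divides the count by the exonic size of the gene in kilobases and by the library total. Of the 50 genes, 48 reached a mean of 0.5 FPKM over the 6 libraries and were tested. PSMA8, an alpha subunit of the testis, and PSMB11, a catalytic subunit of the thymus, had 0 counts in every library, which allows up to 3 counts in each library or between 0.113 and 0.146 FPKM, for counting error only. The median level of the 48 genes was 20.3 FPKM, against 3.86 FPKM over all 15870 genes tested. PSMB7, the subunit with trypsin-like activity, was highest with 198 FPKM, followed by the alpha subunit PSMA7 with 125 FPKM and the structural beta subunit PSMB4 with 95.3 FPKM.

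The standard beta ring genes had a median level of 73.0 FPKM and the alpha ring genes 41.9 FPKM. Per kilobase of 1 coding transcript, a length chosen after the values were seen, these medians were 110 and 101. In the cap, the medians were 19.0 FPKM for the ATPases, 43.5 FPKM for PSMD1, PSMD2, PSMD4 and the ubiquitin receptor ADRM1, and 19.1 FPKM for the lid. Assembly chaperones had medians of 20.3 FPKM for the base and 10.01 FPKM for the core. The inducible catalytic genes lay lower than the standard ones, with 11.9 FPKM for PSMB10, 10.7 FPKM for PSMB8 and 2.34 FPKM for PSMB9, against 198, 39.8 and 48.5 FPKM for PSMB7, PSMB5 and PSMB6, which they replace. Per kilobase of transcript they were also lower, with 15.9, 33.2 and 9.98 against 361, 47.6 and 82.4. PSME1 had 40.7 FPKM and PSME2, whose protein shares its ring, 17.6 FPKM. Per kilobase of 1 coding transcript they had 63.7 and 72.3, so their order depended on the length used. PSME4, which encodes the large single-chain activator PA200, had 7.82 FPKM.

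**Figure D1:**
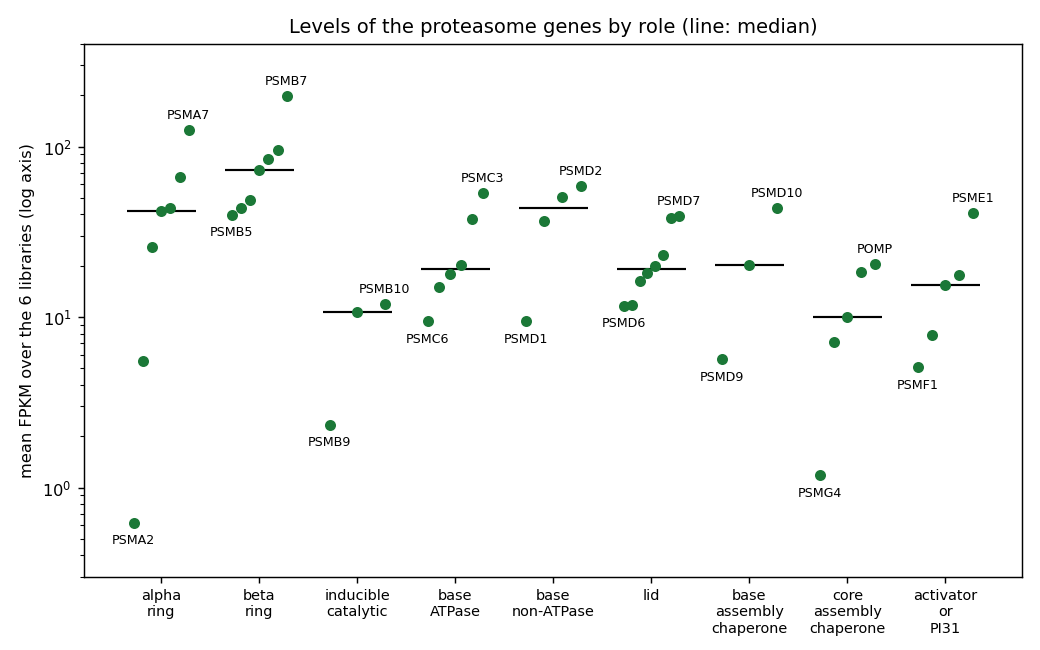
Mean FPKM over the 6 libraries on a log axis for the 48 tested proteasome genes, arranged by role, with 1 point per gene and a line at the median of each role. The lowest and highest gene of each role are named. The standard beta ring has the highest median, and PSMA2 (0.622 FPKM), PSMG4 (1.18 FPKM) and PSMB9 (2.34 FPKM) are the lowest genes.

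The core is built from equal numbers of its subunits, but its 14 standard ring genes differed by 318-fold in level. PSMA2 was lowest with 0.622 FPKM. Overlaps were read from GENCODE 29, in which 9 of the 50 genes have the same start and end as in the deposited table, so the shares may differ in the annotation that was counted. There, 97.1% of its coding bases are shared with another gene on the same strand (ENSG00000256646), which had 17 counts in the 6 libraries together. For PSMA6 the shared part was 70.4%, and the other gene (ENSG00000258790) had 61 counts. Reads that fit 2 genes can be dropped by the counting step, and the levels of PSMA2 and PSMA6 are uncertain for this reason. For PSMA1, however, 88.6% was shared with a gene that had 0 counts, and PSMA1 had 41.9 FPKM. The exonic size also sums the exons of all transcripts. Per kilobase of 1 coding transcript of each gene, a length chosen after the values were seen, the range was 103-fold and PSMA2 remained lowest. PSMA2 thus set both ranges. Without PSMA2 and PSMA6, the ring genes ran from 25.8 FPKM (PSMA4) to 198 FPKM (PSMB7). Per kilobase of transcript, the ring genes other than PSMA2 ran from 40.8 (PSMA6) to 361 (PSMB7).

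The comparison of the groups followed, on normalized CPM (counts relative to the library size after TMM scaling). NC library 3 had the highest value of the 6 libraries for 39 of the 48 genes (81.2%), against 35.5% of all genes tested. The NC 3 value was a median of 1.43 times the mean of NC 1 and NC 2 for the proteasome genes and 0.969 times for all genes. Summed over the proteasome genes, the libraries had 4729, 4871 and 7227 normalized CPM in NC and 5072, 4984 and 4992 in GRIK1 siRNA. Within each group the other libraries lay closer together, with ratios of NC 1 to NC 2 between 0.759 and 1.08. The ratio of the highest to the lowest GRIK1 siRNA library had a median of 1.07 and reached 1.42.

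By role, the median ratio of NC 3 to the other NC libraries was 1.86 for the alpha ring, 1.45 for the beta ring, 1.52 for the ATPases, 1.38 for the lid and 1.14 for the activators with PSMF1. PSMA6 had the highest ratio (2.50) and PSMD3, a lid subunit, the lowest (0.813). NC 3 was the lowest of the 6 libraries for 4 genes, PSMA2, PSMC4, PSMD3 and PSME4 (8.33%, against 35.8% of all genes). The share of ribosomal protein counts was also highest in NC 3, and its part in this pattern was not tested. For most genes the fold change is therefore given with and without NC 3, while the tests of ratios between genes used all 6 libraries.

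**Figure D2:**
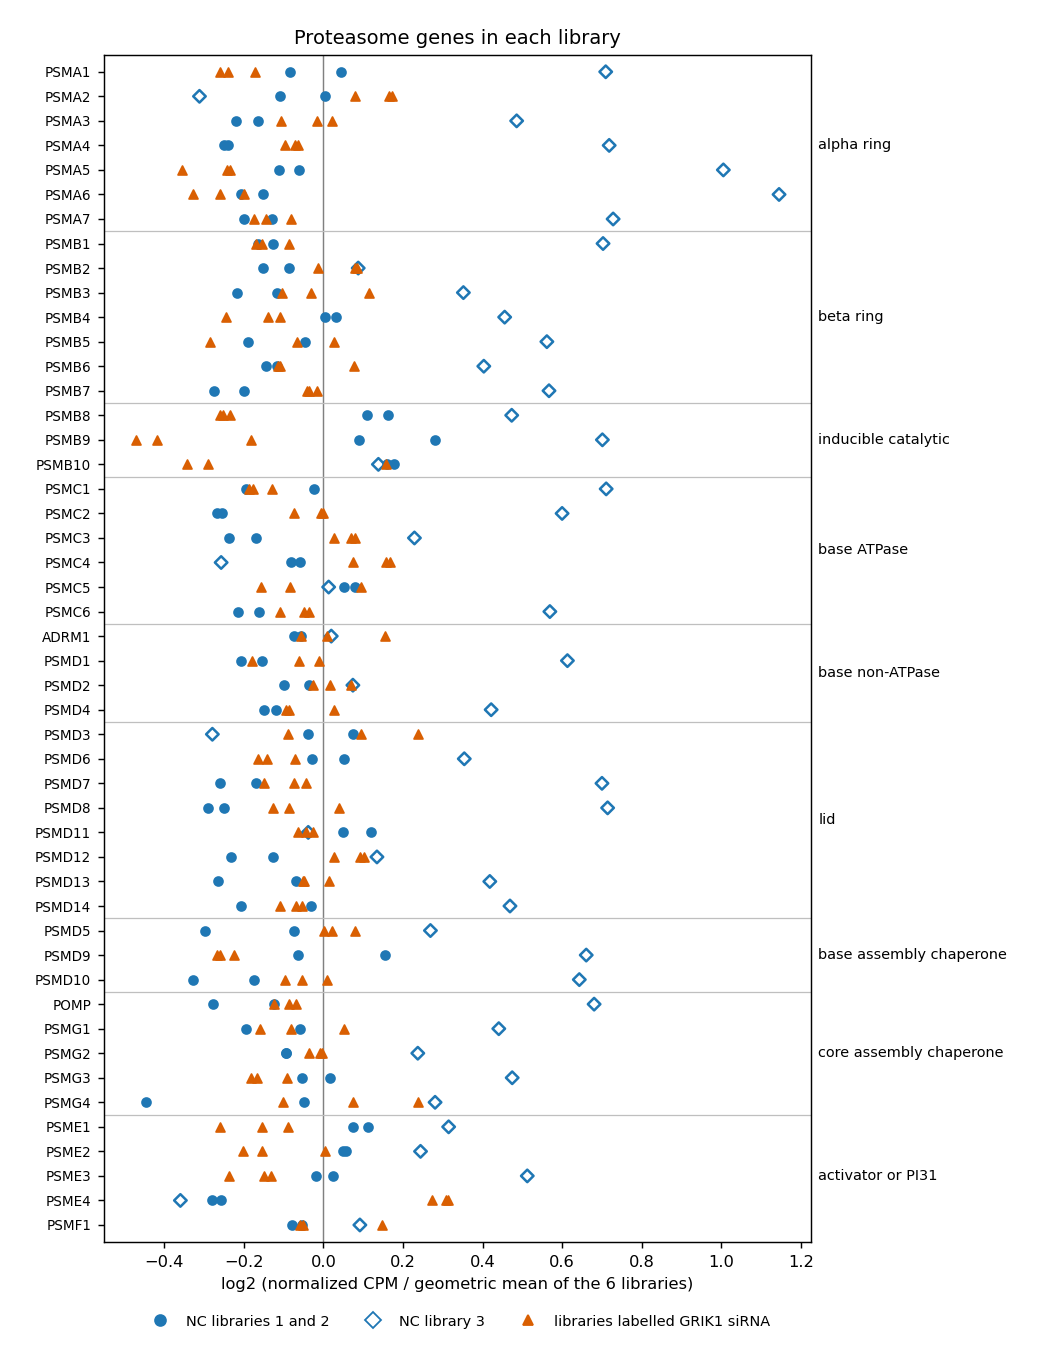
Level of each of the 48 tested proteasome genes in each library, as the log2 ratio of normalized CPM to the geometric mean of the 6 libraries, ordered by role. Filled circles are NC libraries 1 and 2, open diamonds NC library 3 and triangles the libraries labelled GRIK1 siRNA. NC library 3 is the highest library for 39 of the genes, while for PSME4 the 3 triangles lie above all NC libraries.

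With all 6 libraries, 1 of the 48 genes passed as higher in GRIK1 siRNA and 0 passed as lower, passing being an adjusted p under 0.05 (edgeR's quasi-likelihood test, Benjamini-Hochberg over 15870 genes). Of all genes tested, 1.6% passed as higher, 1.48% as lower and 3.08% in either direction. Unadjusted p-values under 0.05 were found for 5 proteasome genes (10.4%), against 25.1% of all genes, and DESeq2 called 1 higher and 2 lower. None of the 48 was differentially expressed, which also required an absolute log2 fold change over 1 and held for 1.41% of all genes. The log2 fold changes ranged from -0.73 to 0.60 with a median of -0.17, against -0.02 over all genes, and 36 (75%) were below 0, against 51.4% of all genes. All libraries labelled GRIK1 siRNA lay below all NC libraries for 11 genes (22.9%), near the 19% of all genes. These were PSMA1, PSMA5, PSMB4, PSMB8, PSMB9, PSMD6, PSMD9, PSMG3, PSME1, PSME2 and PSME3. They lay above for 3 genes, PSMA2, PSMC4 and PSME4 (6.25%), against 19.4% of all genes. With total counts in place of TMM, 9 genes lay above and 11 below.

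Without NC 3, the balance of directions was different. At an adjusted p under 0.05, 12 genes (25%) were higher, against 16.9% of all genes, and 8 (16.7%) were lower, against 18.3%, with 35.2% of all genes passing in either direction. None was differentially expressed, against 3.09% of all genes. The median log2 fold change was 0.08, against 0.01 over all genes, and ranged from -0.54 to 0.57, and 16 genes (33.3%) were below 0, against 49.3% of all genes. Of the 48 genes, 20 had a log2 fold change below 0 with all libraries and above 0 without NC 3, and 0 turned the other way. The other 12 were above 0 in both comparisons. The groups did not overlap for 21 genes with higher GRIK1 siRNA libraries (43.8%, against 28% of all genes) and for 13 with lower ones (27.1%, against 28.5%). The dispersion common to all genes was 0.0391 with and 0.00298 without NC 3.

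**Figure D3:**
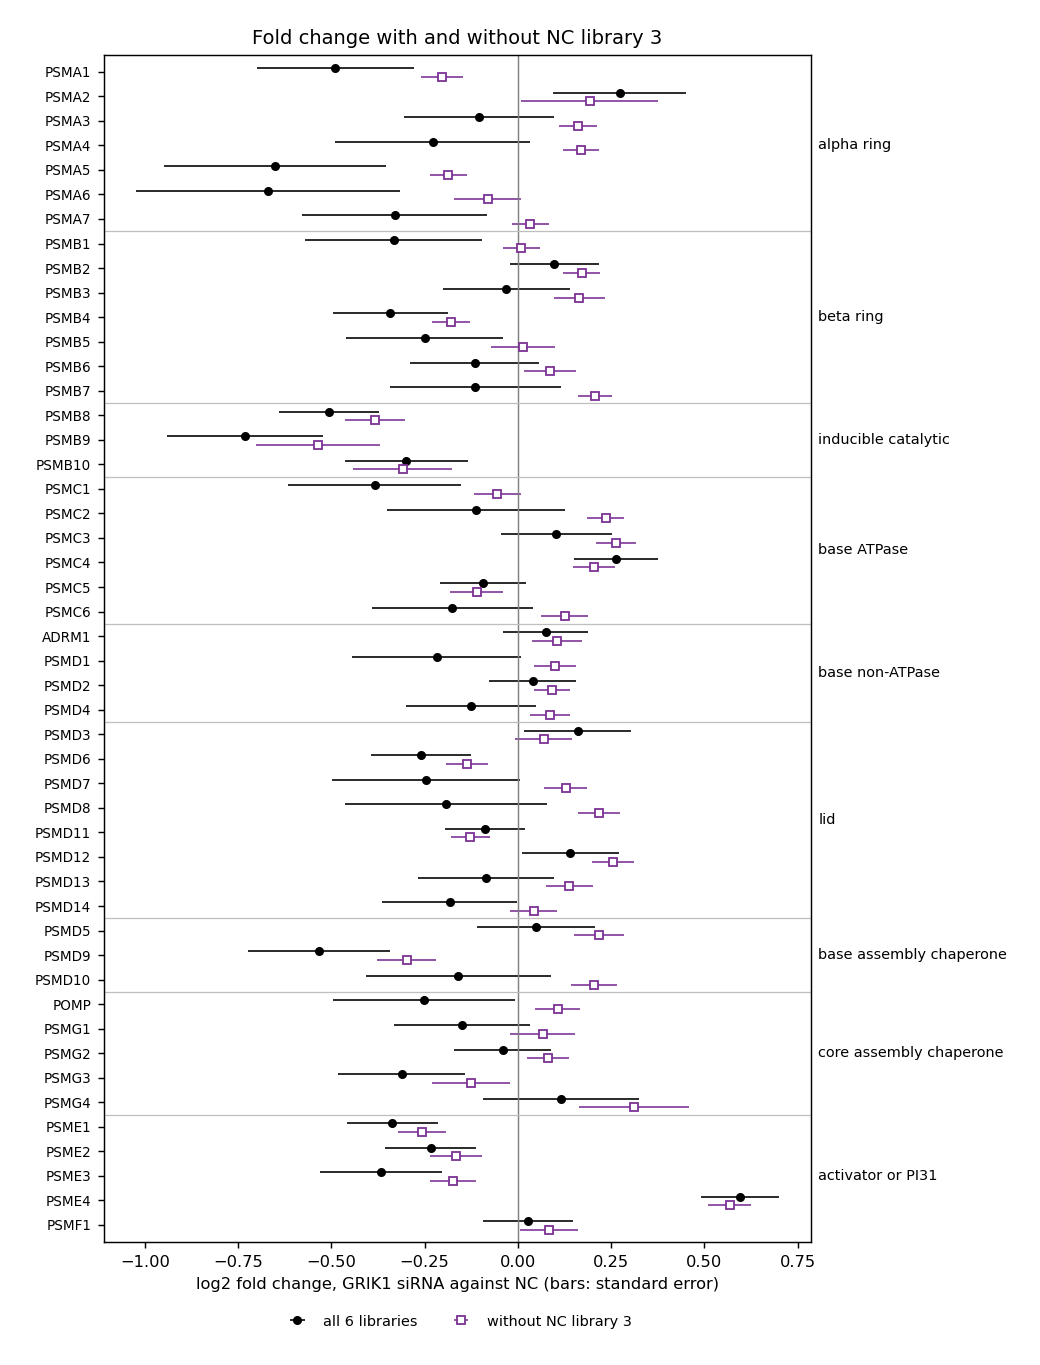
Log2 fold change of each tested proteasome gene, GRIK1 siRNA against NC, with its standard error, from all 6 libraries (black circles) and without NC library 3 (open squares), ordered by role. PSME4 lies near 0.6 in both, PSMB8 and PSMB9 lie below 0 in both, and 20 genes move from below to above 0 when NC library 3 is left out.

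PSME4 was the proteasome gene that passed. Its product PA200 caps the core without ATP and is known for degrading acetylated histones, in DNA repair and in spermatogenesis. The gene lies on the minus strand at chr2:53864069-53970993 (GRCh38). PSME4 had 65.0, 66.1 and 61.5 normalized CPM in NC libraries 1 to 3 and 97.8, 95.3 and 98.1 in GRIK1 siRNA libraries 1 to 3, so that the groups were separate and NC 3 lay near the other NC libraries. The means were 64.2 ± 2.39 and 97.04 ± 1.53 (SD, n = 3 each), a rise of 0.60 on the log2 scale (SE 0.10, adjusted p = 0.0378 in edgeR). Without NC 3 the log2 fold change was 0.57 (SE 0.06, adjusted p = 8.86e-07). The exonic size of PSME4 is 10392 bases, against medians of 4330 for the proteasome genes and 4070.5 for all genes. In a fit that removed the trend of counts with exonic size, the log2 fold change was 0.49 and the adjusted p 0.053. Leaving out any 1 of the other 5 libraries gave log2 fold changes from 0.59 to 0.62 and adjusted p-values from 0.0796 to 0.229.

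The 3 inducible catalytic subunits all had log2 fold changes below 0, from -0.73 to -0.30 with all libraries and from -0.54 to -0.31 without NC 3. PSMB8 and PSMB9 lie in the class II region of the major histocompatibility complex, at chr6:32840717-32844679 on the minus strand and chr6:32844136-32859851 on the plus strand. PSMB8, with chymotrypsin-like activity, had 39.9, 41.4 and 51.3 normalized CPM in NC and 31.0, 30.9 and 31.4 in GRIK1 siRNA. All GRIK1 siRNA libraries lay below all NC libraries, by a log2 fold change of -0.51 (SE 0.13), which did not pass with all libraries (adjusted p = 0.0841) and passed without NC 3 (-0.38, adjusted p = 0.00124) in edgeR. PSMB9, which replaces PSMB6, had 8.06, 9.20 and 12.3 normalized CPM in NC and 5.47, 6.68 and 5.67 in GRIK1 siRNA, again without overlap. Its log2 fold change was -0.73 (SE 0.21, adjusted p = 0.0982) with all libraries and -0.54 (adjusted p = 0.0177) without NC 3. These are the 2 genes that DESeq2 called lower with all 6 libraries, with log2 fold changes of -0.50 (adjusted p = 0.0333) and -0.73 (adjusted p = 0.0467).

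PSMB10, which replaces PSMB7, overlapped between the groups. Its values were 21.7, 21.4 and 21.1 in NC and 21.4, 15.1 and 15.7 in GRIK1 siRNA, where library 1 lay within the NC range and libraries 2 and 3 below it. The log2 fold change was -0.30 (SE 0.16, adjusted p = 0.291 in edgeR) and did not pass without NC 3 either (adjusted p = 0.0817). The strand setting of the counting is not given in the sources used here. Of the coding bases of PSMB8, 14.02% are shared with genes on the other strand, among them PSMB8-AS1, and of those of PSMB10, 58.3% with another gene on the same strand, so reads from these parts cannot be assigned with certainty.

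The standard active subunits overlapped between the groups. PSMB5 (chymotrypsin-like) had 53.5, 59.0 and 90.0 normalized CPM in NC and 62.1, 58.2 and 50.03 in GRIK1 siRNA. PSMB6 (caspase-like) had 63.3, 64.5 and 92.4 in NC and 73.8, 64.6 and 64.8 in GRIK1 siRNA. For PSMB7 the values were 289, 305 and 518 in NC and 341, 346 and 339.6 in GRIK1 siRNA. NC 3 was the highest library for each of the 3 genes. Their log2 fold changes were -0.25, -0.12 and -0.11 with all libraries, none of which passed, and 0.01, 0.09 and 0.21 without NC 3, of which PSMB7 passed (adjusted p = 0.002 in edgeR).

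Each inducible subunit was then set against the standard subunit it replaces within the same library, on log2(FPKM + 1). The ratio of PSMB9 to PSMB6 was lower in each GRIK1 siRNA library than in every NC library, with mean log2 ratios of -4.12 ± 0.19 and -3.69 ± 0.08 (SD, n = 3 each), a difference of -0.43. The two-sided exact permutation test gave p = 0.1, the smallest that 3 against 3 libraries allow. For PSMB8 to PSMB5 the difference was -0.25 (exact permutation p = 0.2) and for PSMB10 to PSMB7 -0.24 (exact permutation p = 0.5). Adjusted over the 3 ratios, the exact permutation p-values were 0.3, 0.3 and 0.5. As a plain ratio of FPKM values, PSMB9 to PSMB6 was 0.0553, 0.0617 and 0.0577 in NC 1 to NC 3, so NC 3 did not stand apart here, and 0.0321, 0.0447 and 0.0380 in GRIK1 siRNA. PSMB8 to PSMB5 was 0.332, 0.312 and 0.254 in NC and 0.222, 0.236 and 0.279 in GRIK1 siRNA. PSMB10 to PSMB7 was 0.0826, 0.0774 and 0.0449 in NC and 0.0691, 0.0481 and 0.0508 in GRIK1 siRNA. For these pairs the groups overlapped only through NC 3. On leaving out 1 library, the log2 differences ranged from -0.362 to -0.168 for PSMB8, from -0.515 to -0.327 for PSMB9 and from -0.507 to -0.0762 for PSMB10.

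The genes of the PA28 caps were lower without overlap in the libraries labelled GRIK1 siRNA, and none passed with all 6 libraries. PSME1 (chr14:24136163-24138967, plus strand) had 75.9, 77.9 and 89.6 normalized CPM in NC and 64.8, 60.2 and 67.7 in GRIK1 siRNA, a log2 fold change of -0.34 (SE 0.12, adjusted p = 0.149 in edgeR) that passed without NC 3 (-0.26, adjusted p = 0.00515). Its partner PSME2 (chr14:24143362-24147570, minus strand) had 65.6, 65.2 and 74.7 in NC against 63.2, 56.7 and 54.8 normalized CPM, with -0.23 (adjusted p = 0.27) and, without NC 3, -0.17 (adjusted p = 0.0798). PSME2 shares 216 exonic bases with RNF31 on the other strand. PSME3, which forms the nuclear PA28 gamma cap, had 79.9, 77.6 and 112 in NC against 66.7, 70.9 and 71.7 normalized CPM, with -0.37 (adjusted p = 0.212) and, without NC 3, -0.17 (adjusted p = 0.0351). PSMF1, the inhibitor PI31, had a log2 fold change of 0.03 and, without NC 3, 0.08.

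**Figure D4:**
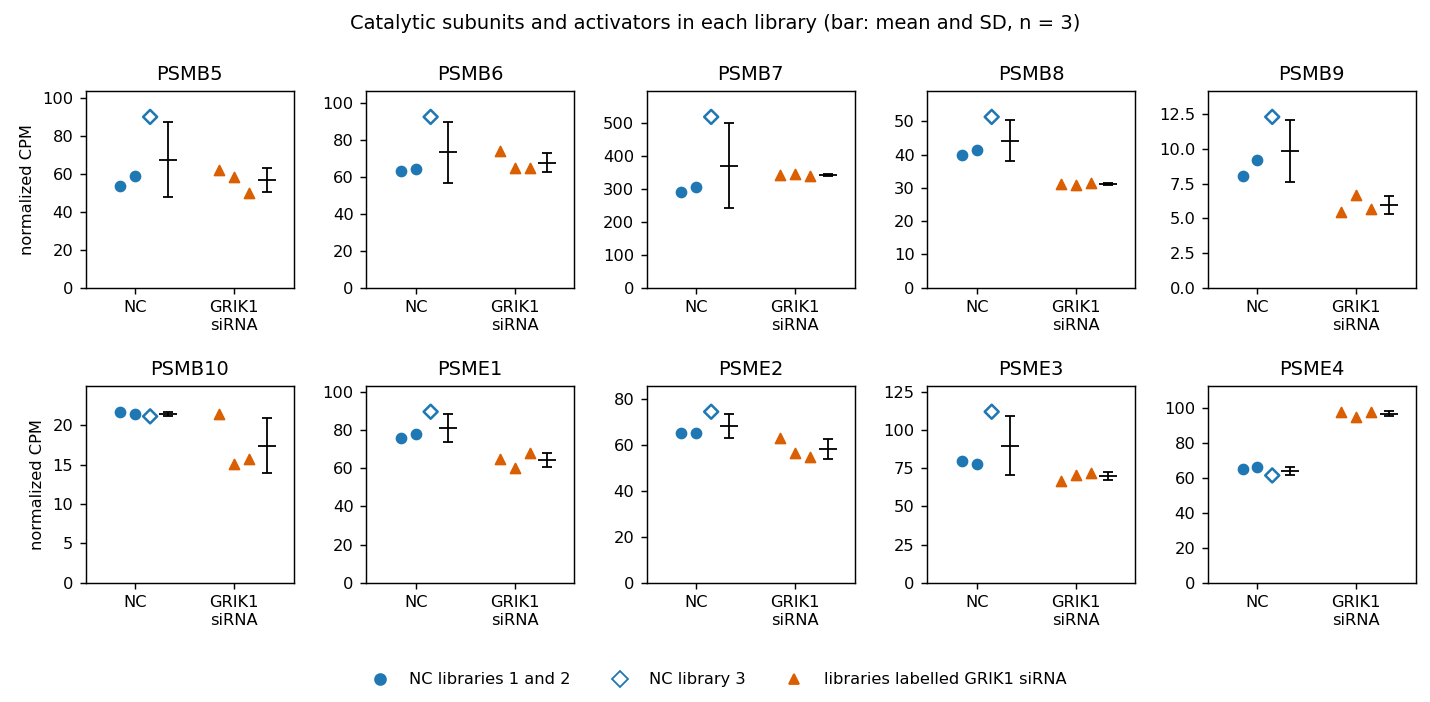
Normalized CPM of the standard (PSMB5 to PSMB7) and inducible (PSMB8 to PSMB10) catalytic subunits and of the activators PSME1 to PSME4 in each library, with the mean and SD of each group (n = 3) beside the points. Each panel has its own axis from 0. NC library 3 (open diamond) is highest in 8 of the 10 panels, and the groups do not overlap for PSMB8, PSMB9 and PSME1 to PSME4.

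Promoter windows are shown for PSMB8, PSMB9, PSME1, PSME2 and PSME4, which are only some of the genes whose groups did not overlap. They were picked with the matches known, since PSMB8, PSME1 and PSME2 share letters in these windows. RefSeq (GRCh38.p14) windows of 250 bases before and 50 bases after the start were matched by symbol for 44 of the 50 genes. PSMA7, PSMB1, PSMB6, PSMB7, PSMD4 and PSMG3 had no entry. Capitals mark matches on either strand to GAAA followed by any 2 bases and GAAA (the core of the interferon-stimulated response element, ISRE), TTCNNNGAA (the gamma-activated sequence, GAS), TGACNNNGC (the core of the antioxidant response element, ARE), CCAAT and CCGGAAG (an ETS core). The GAS letters read the same on both strands, and the windows are printed 5′ to 3′ along the gene. They lie at chr6:32843998-32844297 (minus strand, the first of 2 PSMB8 windows), chr6:32853942-32854241 (plus strand, PSMB9), chr14:24135944-24136243 (plus strand, PSME1), chr14:24146561-24146860 (minus strand, PSME2) and chr2:53970944-53971243 (minus strand, PSME4).
PSMB8: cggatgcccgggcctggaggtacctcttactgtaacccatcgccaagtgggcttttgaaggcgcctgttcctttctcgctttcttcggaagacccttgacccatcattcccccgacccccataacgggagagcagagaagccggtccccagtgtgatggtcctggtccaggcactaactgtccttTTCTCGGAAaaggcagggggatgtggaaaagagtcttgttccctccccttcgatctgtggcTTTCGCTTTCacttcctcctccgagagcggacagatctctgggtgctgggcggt
PSMB9: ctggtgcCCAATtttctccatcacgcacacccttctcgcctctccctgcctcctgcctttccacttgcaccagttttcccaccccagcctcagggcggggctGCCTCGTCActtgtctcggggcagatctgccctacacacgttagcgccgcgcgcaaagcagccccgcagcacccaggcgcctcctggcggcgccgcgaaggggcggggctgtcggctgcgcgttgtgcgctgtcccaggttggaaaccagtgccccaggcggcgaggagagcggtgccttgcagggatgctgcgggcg
PSME1: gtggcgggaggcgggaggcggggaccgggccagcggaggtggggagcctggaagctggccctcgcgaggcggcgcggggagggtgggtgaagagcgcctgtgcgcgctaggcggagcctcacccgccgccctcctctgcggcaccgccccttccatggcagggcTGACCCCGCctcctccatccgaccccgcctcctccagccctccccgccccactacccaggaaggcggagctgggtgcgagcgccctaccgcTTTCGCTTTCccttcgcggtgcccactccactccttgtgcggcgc
PSME2: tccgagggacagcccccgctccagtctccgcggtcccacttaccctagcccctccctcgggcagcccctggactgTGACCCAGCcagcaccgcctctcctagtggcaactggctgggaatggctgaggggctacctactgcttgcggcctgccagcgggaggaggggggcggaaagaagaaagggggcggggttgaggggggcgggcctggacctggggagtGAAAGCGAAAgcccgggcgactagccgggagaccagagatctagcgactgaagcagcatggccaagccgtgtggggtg
PSME4: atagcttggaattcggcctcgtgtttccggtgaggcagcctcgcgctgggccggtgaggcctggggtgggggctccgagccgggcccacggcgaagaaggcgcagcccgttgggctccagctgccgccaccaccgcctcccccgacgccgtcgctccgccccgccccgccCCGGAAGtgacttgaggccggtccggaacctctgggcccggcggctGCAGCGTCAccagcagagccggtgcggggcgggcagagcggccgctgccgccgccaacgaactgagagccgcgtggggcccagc

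The ISRE letters were found in 7 of the 44 genes (15.9%), against 4.38% of all 27305 genes with a window, in PSMA4, PSMB4, PSMB8, PSMB10, PSME1, PSME2 and PSMG4. In 5 of these (PSMB8, PSMB10, PSME1, PSME2 and PSMG4) the full run was GAAAGCGAAA or its reverse complement TTTCGCTTTC, which was present in 34 of the 27305 genes (0.125%) and was picked out after the matches were seen. PSMG4, with the same run, had a log2 fold change of 0.12, above 0, and PSMB10, also with the run, overlapped between the groups. Of the other ISRE genes, PSMB4 was lower without overlap. PSMA4 passed as higher without NC 3 (0.17, adjusted p = 0.00992 in edgeR). The ARE letters, at which NFE2L1 can bind, were found in 16 genes (36.4%, against 16.1%), the ETS core in 16 (36.4%, against 12.2%), CCAAT in 21 (47.7%, against 39.7%) and GAS in 8 (18.2%, against 9.38%). PSMB9 held no ISRE match in its window and PSME4 held 1 ETS core and 1 ARE match. These are matches of letters only.

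In the alpha ring, 6 of 7 tested genes had a log2 fold change below 0 with all libraries and 3 of 7 without NC 3, and none passed with all libraries. PSMA5 had 222, 229 and 481 normalized CPM in NC and 187, 204 and 203 in GRIK1 siRNA, without overlap. PSMA6 had 29.4, 30.5 and 75.1 in NC and 29.5, 27.0 and 28.4 in GRIK1 siRNA. NC 3 was the highest library for both. PSMA5 had a log2 fold change of -0.65 (adjusted p = 0.218 in edgeR) that was -0.19 without NC 3 (adjusted p = 0.00675), while for PSMA6 -0.67 became -0.08 and did not pass. PSMA1 had 118, 129 and 205 in NC against 112, 105 and 106 normalized CPM and passed without NC 3 (-0.20, adjusted p = 0.00932). PSMA2 was above 0, with 4.79, 5.18 and 4.16 in NC against 5.78, 5.45 and 5.82 normalized CPM and a log2 fold change of 0.27 that did not pass. PSMA3 (0.16) and PSMA4 (0.17) passed as higher without NC 3 and PSMA7 (0.03) did not pass.

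Of the structural beta subunits, PSMB4 was the one without overlap, with lower GRIK1 siRNA libraries and log2 fold changes of -0.34 and, without NC 3, -0.18 (adjusted p = 0.01 in edgeR). PSMB2 passed as higher without NC 3 (0.17). PSMB1 and PSMB3 had 0.01 and 0.16 there and did not pass.

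For the ATPase ring, log2 fold changes had a median of -0.10 with all libraries and 0.16 without NC 3. PSMC4 was higher without overlap, with 90.1, 91.5 and 79.8 normalized CPM in NC and 106, 100.3 and 107 in GRIK1 siRNA (0.26, adjusted p = 0.199 in edgeR; without NC 3 0.20, adjusted p = 0.00851). PSMC3 had 103, 108 and 143 in NC against 128, 124 and 129 normalized CPM, so that the GRIK1 siRNA libraries lay above NC 1 and NC 2 and below NC 3. The same order held for PSMC2, with 145, 144 and 262 in NC against 164, 172 and 172. Without NC 3 the log2 fold changes were 0.26 (adjusted p = 0.000852) for PSMC3 and 0.24 (adjusted p = 0.00118) for PSMC2, against 0.10 and -0.11 with it. PSMC1, which shares 47.7% of its coding bases with genes on the other strand, PSMC5 and PSMC6 passed in neither comparison.

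In the rest of the base, the scaffold subunits PSMD1 and PSMD2 and the ubiquitin receptors PSMD4 and ADRM1 had log2 fold changes between -0.22 and 0.07 with all libraries and between 0.09 and 0.10 without NC 3, and none passed in either. Of the 8 lid genes, 0 passed with all libraries and 2 as higher without NC 3. These were PSMD12, with 90.5, 97.3 and 117 normalized CPM in NC and 108, 113 and 114 in GRIK1 siRNA (0.25, adjusted p = 0.00196 in edgeR), and PSMD8 (0.22, adjusted p = 0.00612). PSMD3 had 93.6, 86.5 and 73.2 in NC against 105, 83.5 and 94.8 normalized CPM, with overlapping groups. PSMD14, the deubiquitinase that removes ubiquitin chains from substrates, had -0.18 with all libraries and 0.04 without NC 3. The log2 fold changes of PSMD6, PSMD7, PSMD11 and PSMD13 lay between -0.26 and -0.09 with all libraries and between -0.14 and 0.14 without NC 3.

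The base chaperones differed among themselves. PSMD9 had 47.0, 54.6 and 77.5 normalized CPM in NC and 40.9, 42.0 and 40.7 in GRIK1 siRNA, without overlap, and a log2 fold change of -0.53 (SE 0.19, adjusted p = 0.146 in edgeR) that was -0.30 (adjusted p = 0.00706) without NC 3. Of its coding bases, 58.7% are shared with genes on the same strand, so its counts are uncertain. Among the genes that share its exons, CFAP251 had 204, 190 and 137 counts in NC and 469, 477 and 533 in GRIK1 siRNA. PSMD5 had 72.4, 84.5 and 107 in NC against 90.3, 94.0 and 89.1 normalized CPM and passed in the other direction without NC 3 (0.22, adjusted p = 0.0166). PSMD10 (gankyrin) was also higher there (0.21, adjusted p = 0.0151). Of the core chaperones, POMP had 82.2, 91.5 and 159.6 normalized CPM in NC and 91.4, 93.8 and 94.9 in GRIK1 siRNA, with NC 3 above the rest, and log2 fold changes of -0.25 and, without NC 3, 0.11. PSMG1 to PSMG4 did not pass in either comparison, with values from -0.31 to 0.12 with all libraries and from -0.13 to 0.31 without NC 3.

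The ubiquitin-proteasome pathway around the proteasome was described with a list of 39 genes, of which 38 were tested. With all libraries 2 (5.26%, against 1.6% of all genes) were higher and 0 (against 1.48%) lower at an adjusted p under 0.05 in edgeR. The log2 fold changes ranged from -0.78 to 1.36 with a median of -0.05, and the genes at both ends did not pass. Of the tested genes, 11 (28.9%, against 25.1% of all genes) had an unadjusted p under 0.05. UBA6, an activating enzyme for ubiquitin and FAT10, had 127, 127 and 146 normalized CPM in NC and 200.1, 223 and 213 in GRIK1 siRNA, a rise of 0.67 on the log2 scale (adjusted p = 0.0386 in edgeR). ECPAS, an adaptor that binds the 26S proteasome, had 179, 172 and 173 in NC against 249.995, 256 and 248 normalized CPM, a rise of 0.52 (adjusted p = 0.0485). Without NC 3 the rises were 0.74 for UBA6 (adjusted p = 1.55e-08 in edgeR) and 0.52 for ECPAS (adjusted p = 1.74e-07). For both the groups did not overlap, and as with PSME4 each call was lost when any library other than NC 3 was left out. Without NC 3, 11 pathway genes (28.9%, against 16.9% of all genes) were higher and 8 (21.1%, against 18.3%) lower. With the trend by exonic size removed, 0 pathway genes passed in edgeR, and in DESeq2 6 were higher and 1 lower.

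The transcription factor NFE2L1 had 896, 871 and 794 normalized CPM in NC and 852, 857 and 847 in GRIK1 siRNA, with overlapping groups and means of 854 ± 53.1 and 852 ± 4.71 (SD, n = 3 each). Its adjusted p was 0.989 in edgeR, and 0.426 without NC 3 (log2 fold change -0.05). The ubiquitin gene UBB had 332, 352 and 460.4 in NC against 311, 292 and 282 normalized CPM, lower without overlap in GRIK1 siRNA. Its log2 fold change of -0.37 did not pass with all libraries (adjusted p = 0.193 in edgeR). Without NC 3, UBB passed as lower (-0.21, adjusted p = 0.00336).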

How the data were processed

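Libraries were assigned to groups by their labels alone. The authors deposited whole-number counts per gene, without normalization, and FPKM values computed from those counts, the exonic size and the total count of the library. This formula gave 100% of the deposited FPKM values within 0.0051. The submitters' processing notes name cutadapt 1.9.1, HISAT2, HTSeq and GRCh38. The strand setting and the annotation release are not given in the sources used here. The paper states no test for these libraries.

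Genes whose mean reached 0.5 FPKM were tested on the counts with edgeR 4.0.16 (quasi-likelihood test, TMM, no covariate, R 4.3.3), with Benjamini-Hochberg adjustment over all 15870 genes. DESeq2 1.42.0 and limma 3.58.1 (limma-trend on log2(FPKM + 1)) were alternatives, beside other scalings and filters, a replicate block, an offset for exonic size, a fold threshold of 1.5 and leaving out each library. The fitting steps were tested on simulated data. The deviations of same-numbered libraries from their group means had 3 correlations from -0.07 to 0.04. With NC 3 far from NC 1 and NC 2, these cannot decide whether the numbers pair the libraries. Ratios were tested in scipy 1.17.1 over the 6 libraries. Overlaps came from GENCODE 29 and promoters from RefSeq.

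The genes and lists were chosen with earlier results of these data known. Every proteasome gene could be named. Values per library are given for PSMB5 to PSMB10, POMP, PSME1 to PSME4, the genes that passed, and the 5 largest rises and falls with all libraries and, among those that passed, without NC 3, and in the pathway list for NFE2L1, UBB and genes that passed. Some genes are not reported here. The total counts, from 11099909 to 14006968, limit the precision, as does the spread between the libraries. Limits from 0 counts cover counting error only.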

Additional observations from a re-analysis of the deposited data

How the results depend on the processing

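The direction of the 26 named genes' log2 fold changes and their side of the threshold were kept in 310 of 363 values under alternatives, in 22 the call was lost, in 14 gained and in 17 the sign turned. The number of proteasome genes higher fell from 1 to 0 with the exonic size offset and ranged from 0 to 12 on leaving out 1 library. The number lower was 2 in DESeq2 and ranged from 0 to 8. At a fold threshold of 1.5, 1 gene was differentially expressed. Under total count scaling 9 genes lay higher without overlap (3 to 21 on leaving out 1 library). The median log2 fold change ranged from -0.279 to 0.0840, and lay above 0 only without NC 3. Of the pathway genes, 4 were higher with no filter on low values, 6 in DESeq2 and 0 with the exonic size offset (0 to 11 on leaving out 1 library), and 1 was lower in DESeq2 (0 to 8). With the replicate number as a block, 0 proteasome genes and 0 pathway genes were higher, and PSME4 had 0.60 (adjusted p = 0.127). The median core level was 106 per kilobase of transcript (chosen after the data were seen) against 46.1 FPKM, and the range, set by PSMA2, was 103-fold.

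Signs turned without NC 3 for PSMB5, PSMB6, PSMB7, PSMC2 and POMP. On leaving out 1 library, PSMB5 ranged from -0.390 to 0.0136, PSMB6 from -0.210 to 0.0856, PSMB7 from -0.263 to 0.207, PSMC2 from -0.262 to 0.235, POMP from -0.425 to 0.106 and PSMD5 from -0.0706 to 0.218. In limma-trend PSMB7 had 0.0250 and PSMC2 0.0310. NFE2L1, near 0, had 5.0e-05 with median-of-ratios scaling, 0.0775 with total count scaling, 0.0199 at a mean of at least 1 FPKM, 7.5e-05 in DESeq2, 0.0854 in limma-trend and 0.0139 with the exonic size offset, and ranged from -0.0511 to 0.0349 on leaving out 1 library. The causes of these changes were not tested. With 3 against 2 libraries, the comparison without NC 3 has fewer samples. Its NC spread is that of NC 1 and NC 2 alone, and its common dispersion was 0.00298 against 0.0391 with NC 3. Its p-values may therefore be too small.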

Other observations

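Some neighbours of the proteasome genes are given as values, chosen after they were seen. They are not a ranking of the neighbours by change. FTSJ3, on the other strand from PSMC5, had 613, 546 and 331 counts in NC and 813, 871 and 853 in GRIK1 siRNA. ACYP2, an acylphosphatase gene that starts head to head with PSME4 on the other strand and shares 3 exonic bases with it, had 10.99, 11.2 and 16.5 normalized CPM in NC and 6.64, 5.91 and 6.63 in GRIK1 siRNA. It was lower in all 3 libraries, with a log2 fold change of -1.01 (SE 0.21, adjusted p = 0.0485 in edgeR) and -0.79 without NC 3 (adjusted p = 0.000432), while PSME4 was higher.

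TAP1, which encodes a peptide transporter of antigen presentation and lies within the annotated span of PSMB9, had 23.4, 20.01 and 24.9 normalized CPM in NC and 14.3, 12.4 and 11.5 in GRIK1 siRNA. All 3 GRIK1 siRNA libraries lay below the NC libraries (log2 fold change -0.84, SE 0.15, adjusted p = 0.0386 in edgeR) and without NC 3 the value was -0.77 (adjusted p = 8.98e-05). PSMB8-AS1, antisense to PSMB8, had 4.96, 6.79 and 5.92 in NC against 4.45, 3.69 and 3.98 normalized CPM, also without overlap, and did not pass (adjusted p = 0.157). RNF31, a ligase of linear ubiquitin chains that overlaps the start of PSME2 on the other strand, had 6.11, 7.15 and 2.64 in NC against 12.9, 10.3 and 10.98 normalized CPM, higher in all 3 GRIK1 siRNA libraries with a log2 fold change of 1.11 that did not pass (adjusted p = 0.107) and was 0.78 without NC 3 (adjusted p = 0.000896).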
